A study of Mus musculus with 2 samples.

Results

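The genes described are 8 members of the contactin family and of the contactin-associated protein (Caspr) family in mouse cortex: Cntn2, Cntn3, Cntn4, Cntn5, Cntn6, Cntnap1, Cntnap2 and Cntnap4. They were chosen by name, whatever their level, and are 8 of the 55536 annotated genes measured. The tissue was left cerebral cortex, taken at 2 months of age from females of strain B6CASTF1/J, an F1 hybrid of C57BL/6J and CAST/EiJ. Its total RNA, 300 ng as input with ERCC spike-in RNAs added, was sequenced. There is 1 group, with no treatment, transgene or mutation, and it holds 2 libraries, called biological replicates 1 and 2. Their tissue pieces carry separate numbers but the same donor entry, and no label says in words that they came from 2 animals, so the spread between them may be partly technical. With 1 group there is no contrast between conditions and no p-value is given.

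Contactins are cell adhesion molecules of the immunoglobulin superfamily that a lipid anchor holds on the surface of neurons and some glia. Caspr proteins cross the membrane once and pair with contactins on the same axon. On myelinated axons, Cntn1 and Cntnap1 form the axonal side of the paranodal junction beside the node of Ranvier, and Cntn2 and Cntnap2 gather Kv1 potassium channels in the neighbouring juxtaparanode. Cntn3, Cntn4, Cntn5 and Cntn6 act in axon and synapse formation and bind the receptor phosphatase Ptprg, and Cntnap4 is known from synapses of cortical interneurons.

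For Cntn5 and Cntnap4, exon joins that set annotated transcripts apart within the coding sequence are printed first, to show where the transcripts whose shares are given further on differ. All are from the GENCODE M21 transcripts on mm10, written 5′ to 3′ on the strand of the gene. Each covers 30 coding bases.
Cntn5-202 into the exons that Cntn5-204 skips, chr9:10419036-10419050 joined to chr9:10172108-10172122, minus strand: ccaggtggctttcagATTACTCTGAAGCTC
Cntn5-202 out of those exons, chr9:10090158-10090172 joined to chr9:10048872-10048886, minus strand: caccacattctccagAGATCATCTATAGCT
Cntn5-204 across the gap, chr9:10419036-10419050 joined to chr9:10048872-10048886, minus strand: ccaggtggctttcagAGATCATCTATAGCT
Cntnap4-201, chr8:112856503-112856517 joined to chr8:112858159-112858173, plus strand: tcattgccaaaaacgGAAGtttgcagatac
Cntnap4-202, chr8:112856503-112856521 joined to chr8:112858163-112858173, plus strand: tcattgccaaaaacgGTGAtttgcagatac
In Cntn5 the capitals mark the first 15 bases of the exon after the join. In Cntnap4 they mark the stretch of 4 bases within which the transcripts differ, which lies after the join in Cntnap4-201 and before it in Cntnap4-202.

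The deposited tables hold 31196858 expected counts in replicate 1 and 32292150 in replicate 2, of which spike-ins took 0.372% and 0.363%. An expected count is a read count in which reads that fit several transcripts are divided among them. Levels are in TPM, a transcript abundance that is corrected for transcript length and has a fixed sum in each library, so that genes can be compared with each other. Markers of cortical cells were high: Camk2a and Slc17a7 of excitatory neurons stood at 1138 ± 37.8 and 549.5 ± 17.9 TPM (SD, n = 2), and the 5 listed markers of that class all reached 1 TPM in both libraries. Markers of cerebellar granule cells summed to 0.3 and 0.28 TPM in replicates 1 and 2, those of thalamus to 7 and 6.06 TPM, and those of olfactory bulb to 12.5 and 9.68 TPM. Choroid plexus markers summed to 7.87 and 36.6 TPM, of which Ttr was 6.12 and 34.3 TPM, and striatal markers to 62.1 and 41.9 TPM.

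All 8 members were detected in both libraries. They summed to 233 ± 7.89 TPM, with 139.85 ± 3.37 TPM from the 3 Caspr members and 93.5 ± 4.53 TPM from the 5 contactins. The highest member stood 8.54 times above the lowest. Of the 8, 4 lay above 16.05 TPM, the median of the 12945 nuclear protein-coding genes that reached 1 TPM in both libraries.

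Cntnap1, the Caspr protein of the paranode, had the highest level of the 8, with 77.1 and 77.8 TPM in replicates 1 and 2 (77.5 ± 0.559 TPM), above 90.0% of detected coding genes. Its partner Cntn1, which is not among the 8, stood at 132 and 124 TPM (128 ± 5.88 TPM) and was the only gene of both families above it. Cntnap2, the juxtaparanodal Caspr protein, had 55.7 and 50.9 TPM (53.3 ± 3.39 TPM). Its partner Cntn2 had 33.67 and 33.70 TPM (33.7 ± 0.0212 TPM). The paranodal pair thus stood above the juxtaparanodal pair for both the contactin and the Caspr partner, in each library and in both kinds of table.

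Among the contactins of axon and synapse formation, Cntn4 stood apart with 28.1 and 27.4 TPM (27.7 ± 0.509 TPM). Cntn5 had 12.1 and 10.8 TPM (11.5 ± 0.962 TPM) and Cntn3 12.8 and 9.63 TPM (11.2 ± 2.23 TPM). These values overlapped, and Cntn3 was above Cntn5 in replicate 1 and below it in replicate 2. Cntn6 had 10 and 8.80 TPM (9.40 ± 0.849 TPM). The interneuron gene Cntnap4 had 9.45 and 8.69 TPM (9.07 ± 0.537 TPM), and its values overlapped those of Cntn6. The first 4 places, Cntnap1, Cntnap2, Cntn2 and Cntn4, were the same in both libraries with no overlap between neighbours.

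**Figure D1:**
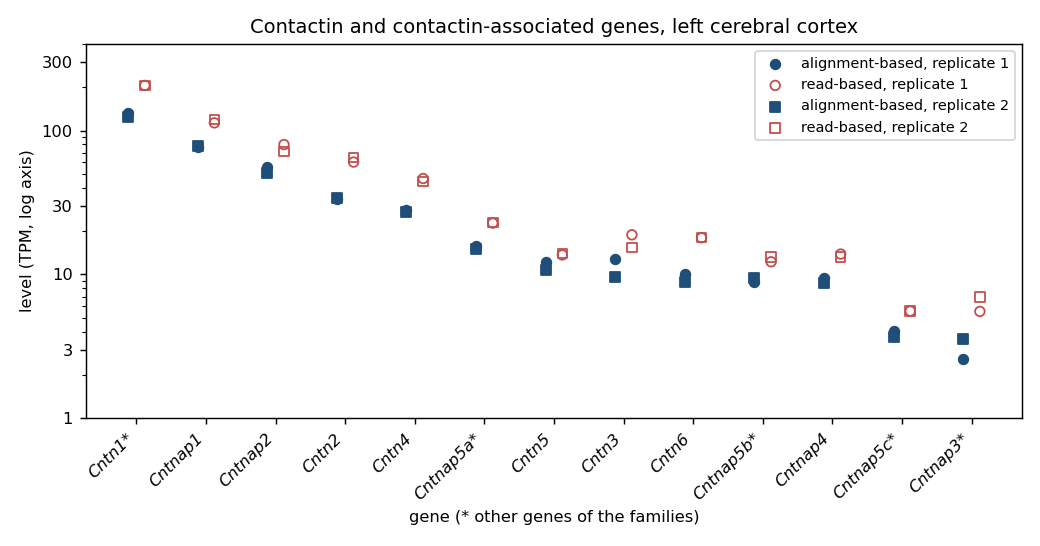
Level of each gene in TPM (log axis) in each library, from the alignment-based tables (filled) and from the read-based tables (open), ordered by the alignment-based mean; asterisks mark the 5 other genes of the families. The first 4 members keep their order in both kinds of table, Cntn3, Cntn5, Cntn6 and Cntnap4 lie close together, and the read-based values are higher for all genes shown.

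The other 5 genes of the families spanned a wider range than the 8. Below Cntn1, Cntnap5a had 15.7 and 14.97 TPM (15.3 ± 0.502 TPM), Cntnap5b 8.80 and 9.39 TPM (9.10 ± 0.417 TPM) and Cntnap5c 4.02 and 3.68 TPM (3.85 ± 0.24 TPM). Cntnap3 was lowest, at 2.59 and 3.53 TPM (3.06 ± 0.665 TPM). All 13 genes together summed to 393 ± 13.4 TPM.

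Each kind of table gave another scale. The read-based tables, quantified from reads without those alignments, gave 113 and 119 TPM for Cntnap1, 79.9 and 71.7 TPM for Cntnap2, 60.4 and 65.2 TPM for Cntn2 and 46.4 and 44.3 TPM for Cntn4, the same order as above. Below them the order differed: Cntn5 had 13.6 and 14.0 TPM, last in replicate 1 and next to last in replicate 2, while Cntn6 had 18.0 TPM in each library. Cntn3 had 18.8 and 15.4 TPM there, and Cntnap4 13.8 and 13.1 TPM.

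The listed partners of these proteins were mostly at higher levels than the members. In the list for paranode and node, 8 of 8 genes reached 1 TPM in both libraries, led by the spectrins and ankyrin Sptan1 (405 ± 11.4 TPM), Ank2 (390 ± 4.86 TPM) and Sptbn1 (264 ± 9.68 TPM), and the lowest was the adhesion protein Nfasc at 66.7 ± 3.15 TPM. All 7 juxtaparanodal genes were detected, from the scaffold Dlg4 (380 ± 7.64 TPM), the Kv1 beta subunit Kcnab2 (168 ± 5.01 TPM) and Dlg2 (127 ± 1.24 TPM) down to the Kv1 channel Kcna1 (52.3 ± 0.41 TPM). Of 10 binding partners of contactins, App (625 ± 28.9 TPM), Aplp1 (553 ± 19.6 TPM) and Nrcam (226 ± 7.58 TPM) were highest and Notch1 lowest (10.3 ± 0.0778 TPM). Ptprg, picked out here after its level was seen because Cntn3 to Cntn6 bind it, had 44.4 and 36.7 TPM (40.6 ± 5.44 TPM), above each of those 4 genes in each library.

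The difference between the libraries was measured from counts, scaled by TMM, as the log2 ratio of replicate 2 over replicate 1 with an exact Clopper-Pearson 95% interval. That interval covers counting error only and holds no spread between animals or library preparations. PCR copies of a molecule were not told apart, so even the counting error may be understated. None of the 8 members lay wholly beyond 2-fold, against 57 of 18562 genes whose mean count reached 10, or 0.307%. Depth does not limit that count, as the members' mean counts ran from 686 to 8722 and all 8 intervals lay within 2-fold.

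A smaller difference left out equality in 3 members. Cntn2 had 3648 counts in replicate 1 and 4186 in replicate 2, a log2 ratio of 0.18 (interval 0.11 to 0.24). Cntnap1 had 8388 and 9057 counts, a log2 ratio of 0.09 (interval 0.05 to 0.13). These 2 were the members called higher in replicate 2, by 1.13 and 1.06 times. Their partners at the axonal junctions were not called. Cntnap2 had a log2 ratio of -0.02 (interval -0.08 to 0.03) and Cntn1 of 0.01 (interval -0.03 to 0.04). Among the 8159 genes whose mean count reached 500, a range that holds all members, 13% were called higher in this way, 8.81% lower and 21.8% either way. The members' count of 3 of 8 stands beside that share of 21.8% and is too small to set apart from it.

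Cntn3 was the 1 member called lower. It had 1320 counts in replicate 1 and 1063 in replicate 2, a log2 ratio of -0.33 (interval -0.45 to -0.22), or 1.26 times more in replicate 1. Its difference was the widest of the 8. Cntn4 (0.05), Cntn5 (0.03), Cntnap2 (-0.02), Cntnap4 (-0.05) and Cntn6 (-0.11) had log2 ratios whose intervals held equality, among them -0.13 to 0.18 for Cntn5 and -0.27 to 0.04 for Cntn6. The median log2 ratio of the 8 was 0.00 and the median of its size 0.07, beside 0.05 for genes with at least 500 counts. Of the other family genes, Cntnap5b was called higher, with a log2 ratio of 0.17 (interval 0.02 to 0.32).

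The marker and partner lists held calls as well. Of 5 oligodendrocyte markers, 3 were called higher in replicate 2 and none lower, with a median log2 ratio of 0.14 and summed levels of 475 and 511 TPM. The 3 are the myelin genes Mobp (0.21), Mbp (0.21) and Mag (0.11). In the lists of the axonal junctions, 4 of 8 paranode and node genes (Nfasc, Ank2, Ank3 and Sptan1) and 4 of 7 juxtaparanode genes (Kcna2, Kcnab2, Dlg2 and Dlg4) were called higher and none lower, with median log2 ratios of 0.03 and 0.06. All genes of the junction lists have mean counts above 4000, a depth at which small ratios are called. Of 1557 genes at that depth, 31.6% were called higher and 12.8% lower. All 3 striatal markers were called lower, Drd1 at a log2 ratio of -0.45 (interval -0.59 to -0.31), Rgs9 at -0.42 and Adora2a at -0.30. Among genes whose mean count reached 500, which leaves out Adora2a and Mog, 8.81% were called lower and 13% higher. Wider ratios lay in other lists. Ttr of choroid plexus was called higher at 2.56 (interval 2.30 to 2.84), wholly beyond 2-fold. Fat2 of cerebellar granule cells (57 and 33 counts) and Trh of olfactory bulb were called lower, at -0.80 and -0.54. In the granule cell list, Cbln3 (5 and 12 counts) and Gabra6 (0 and 2 counts) went the other way, with too few counts to be called. Cdhr1 of olfactory bulb, at -0.12, was not called. The part of oligodendrocyte or striatal RNA in the values of Cntn2, Cntnap1 and Cntn3 was not tested. In bulk tissue, fewer cells of a type and less RNA per cell cannot be told apart.

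**Figure D2:**
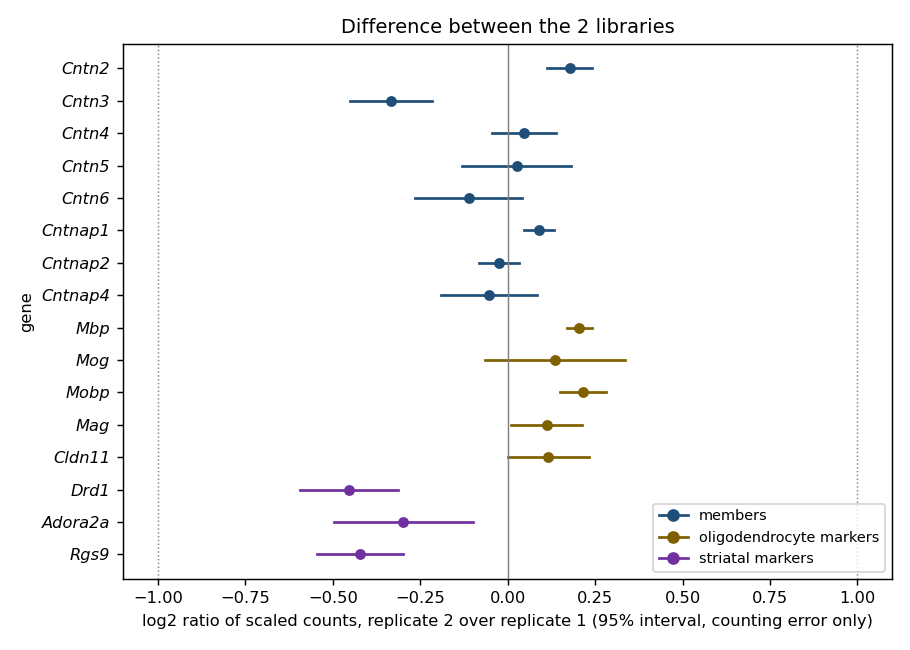
Log2 ratio of scaled counts, replicate 2 over replicate 1 (points), with exact 95% intervals for counting error (lines), for the 8 members, 5 oligodendrocyte markers and 3 striatal markers; dotted lines mark 2-fold. Cntn2 and Cntnap1 lie to the right of equality and Cntn3 to the left, and all 8 members stay inside the dotted lines.

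A smaller share of the inhibitory and other glial markers was called than of the oligodendrocyte markers. Of 6 inhibitory markers 1 was called lower, Lamp5 at a log2 ratio of -0.13. The interneuron marker Sst, the highest of that list, stood at 189 ± 1.82 TPM, and Gad1, Lamp5 and Vip at 179 ± 4.65, 119 ± 11.3 and 26.0 ± 1.97 TPM. Of 3 astrocyte markers, 1 was called higher, Slc1a3 at a log2 ratio of 0.08. Aqp4 (0.05) and Aldh1l1 (0.11) lay on the same side, with intervals that held equality. Of 3 microglial markers none was called. Contactin partners had 2 of 10 called higher, Ptprz1 and Adgrl1, and none lower, with a median log2 ratio of 0.00.

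TPM and counts did not move alike in all members, as Cntn2 and Cntn5 show. Cntn2 had equal TPM in both libraries although its counts were 1.13 times higher in replicate 2. Its complete coding transcript Cntn2-201 went from 17.1 to 18.9 TPM while the 460-base fragment Cntn2-206 went from 7.19 to 5.06 TPM. In Cntn5 the counts were 675 and 697, yet the TPM was 12.1 and 10.8. There Cntn5-202 had 7.29 and 6.87 TPM and the 402-base retained-intron transcript Cntn5-203 had 4.31 and 3.12 TPM. A short transcript takes few reads for each TPM, so in these genes a small number of reads carries much of the summed TPM. Cntnap1, nearly all in 1 transcript, also had counts 1.06 times higher in replicate 2 but 77.06 and 77.85 TPM. With TPM rescaled to nuclear protein-coding genes, Cntnap1 had 165 and 176 TPM, Cntn2 72.1 and 76.4 TPM and Cntn5 26.0 and 24.4 TPM. The part of short transcripts in these gaps was not tested.

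The annotation lists 48 transcripts of the 8 genes. Of these, short forms included, 22 hold a coding sequence whose ends are all annotated, called complete here. The others are fragments whose end is not annotated, transcripts that retain an intron, or other noncoding forms. Complete coding transcripts held over 80% of the TPM in both libraries in 4 members, Cntn3, Cntn6, Cntnap1 and Cntnap4, but over 80% of the counts in 7. Cntn2 was the exception, with 68.9% ± 1.43 of its counts (SD, n = 2) in complete coding transcripts. The leading transcript was the same in both kinds of table in 7 members and differed in Cntn3.

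**Figure D3:**
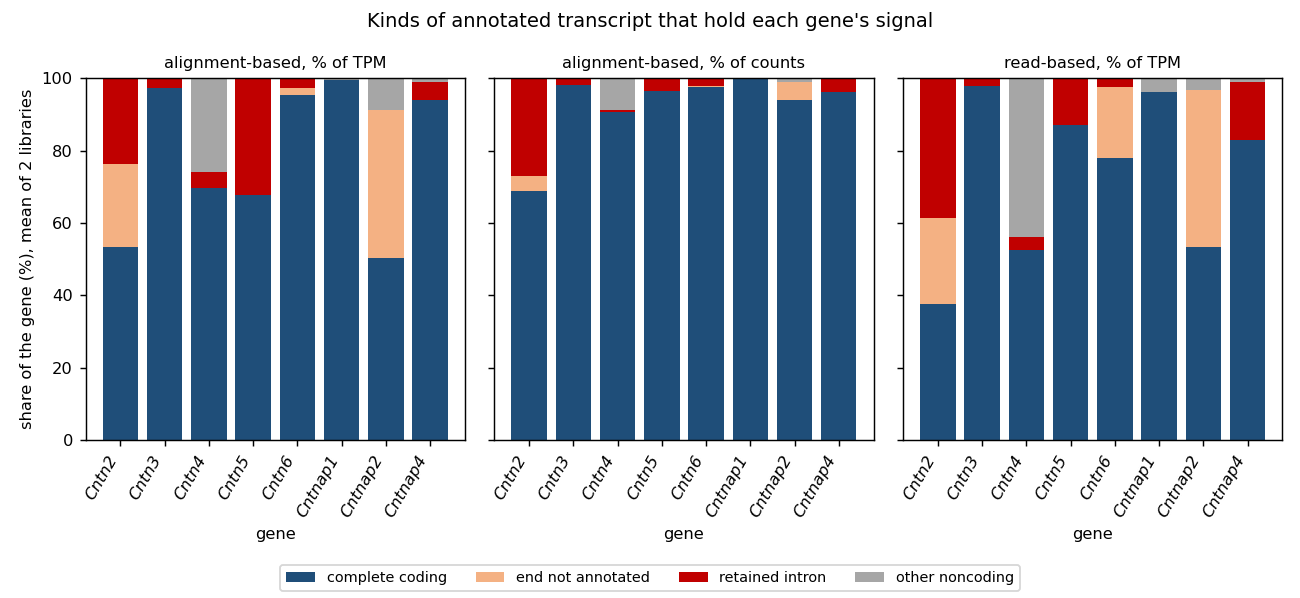
Share of each member's signal (%, mean of the 2 libraries) in annotated complete coding transcripts, fragments with an end not annotated, retained-intron transcripts and other noncoding transcripts, by alignment-based TPM, alignment-based counts and read-based TPM. By alignment-based TPM, Cntnap2, Cntn2, Cntn4 and Cntn5 hold the most outside complete coding transcripts, and by counts Cntn2 does; by read-based TPM, Cntn5 holds less there than Cntn6 and Cntnap4.

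Cntnap1 was nearly a gene of 1 transcript. Cntnap1-201, which encodes 1385 residues, held 99.7% and 99.4% of its TPM in replicates 1 and 2 and 96.2% and 96.5% in the read-based tables. The gene lies at chr11:101170523-101190724 (mm10, plus strand) and is the shortest of the 8, at 20.2 kb.

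Cntnap2 showed the widest gap between TPM and counts. Cntnap2-202, the full-length form of 1332 residues, held 40.4% and 41.1% of the gene's TPM but 89.4% of its counts. Cntnap2-206, a 674-base transcript with an incomplete 3′ end, held 40.6% and 31.9% of the TPM and 4.71% of the counts. Of its bases, 586 are also in Cntnap2-202 and 88 are its own, in a noncoding first exon upstream of the start of Cntnap2-202.

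Cntnap2-206 had 22.7 and 16.3 TPM in replicates 1 and 2. The intervals deposited with these values, whose level is not stated, ran from 18.76 to 25.3 and from 13.0 to 18.73 TPM. They missed each other only narrowly, and the TPM scale differs between the libraries. Cntnap1, for one, had 77.06 and 77.85 TPM though its counts were 1.06 times higher in replicate 2. Cntnap2-206 had 266 and 205 expected counts. Whether its intervals stay apart on another scale was not tested. The read-based tables also gave the fragment a large share, 44.3% and 42.5% of the gene's TPM. With complete coding transcripts only, Cntnap2 stood at 28.1 and 25.6 TPM (26.8 ± 1.77 TPM), 50.3% of its full value.

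Short Cntnap2 forms from the 3′ end of the gene were also listed. Cntnap2-201 held 9.03% and 7.05% of the TPM and 10.5% and 7.86% in the read-based tables. It shares its 324-base coding sequence length with Cntnap2-205, a form of 108 residues that begins 2184 kb downstream of Cntnap2-202. Cntnap2-205 had 0.90% and 2.02% of the TPM and was listed at 0 in both read-based tables, so the tables differ on it.

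**Figure D4:**
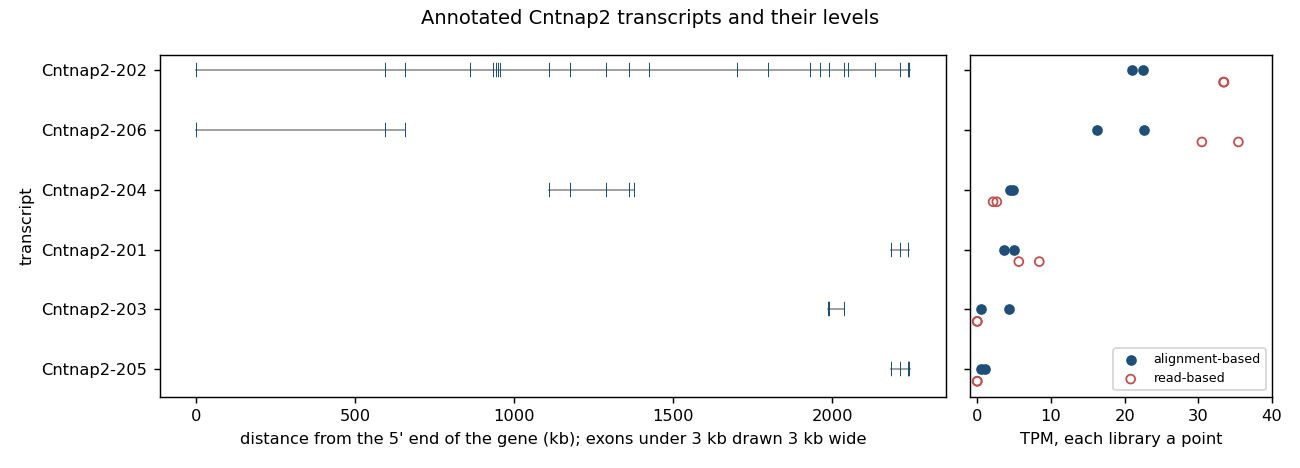
Left, exons of the 6 annotated Cntnap2 transcripts against distance from the 5′ end of the gene in kb (exons under 3 kb drawn 3 kb wide). Right, the level of each in TPM, 1 point for each library, alignment-based (filled) and read-based (open); Cntnap2-202 and the fragment Cntnap2-206 at the 5′ end are the highest in both.

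Cntn2, at chr1:132509427-132543256 (minus strand), had the largest share of retained-intron signal by counts. Cntn2-201, the 1040-residue form, held 50.8% and 56.0% of the TPM, and Cntn2-202, which keeps an intron of 202 bases at chr1:132528708-132528909, held 18.9% and 19.3% of the TPM and 25.2% of the counts. Retained-intron transcripts together took 27.1% ± 1.48 of the gene's counts and 34.0% ± 1.54 of its read-based counts. The fragment Cntn2-206 had 21.3% and 15.01% of the TPM and 1.204% of the counts. Cntn2-205, a retained-intron transcript of 696 bases, held 3.68% and 3.53% in the alignment-based tables but 19.1% and 20.2% in the read-based ones. With complete coding transcripts only, Cntn2 stood at 17.1 and 18.9 TPM, below Cntn4 at 19.7 and 19.01 TPM. That Cntn4 sum includes forms with a shorter coding sequence, such as Cntn4-205 at 4.23 and 3.61 TPM. Of the Cntn4 forms with the longest coding sequence, Cntn4-202 had 11.99 and 10.34 TPM and Cntn4-206 had 0.77 and 2.42 TPM. The order of Cntn2 and Cntn4 thus depends on which transcripts are counted.

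Cntn3, at chr6:102162655-102573101 (minus strand), was split between start sites in opposite ways. Cntn3-201 held 98.1% and 84.2% of the TPM in the alignment-based tables and 0.397% and 0.00764% in the read-based ones. Cntn3-202 held none and 12.4% in the former and 98.3% and 97.1% in the latter. Both have the same 3084-base coding length for 1028 residues, and their starts lie 108 kb apart, so the tables differ on the start and not on the coding length. The single-exon retained-intron transcript Cntn3-203 held 1.88% and 3.43%.

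By alignment, the lower level of Cntn3 in replicate 2 lay in Cntn3-201. That transcript went from 12.5 TPM (deposited interval 9.58 to 12.6) to 8.11 TPM (4.93 to 8.77). By the read-based method the lower level lay in Cntn3-202, at 18.5 and 14.9 TPM in replicates 1 and 2. Summed over its complete coding transcripts, Cntn3 had 12.5 and 9.30 TPM by alignment and 18.6 and 14.9 TPM by the read-based method. The lower value in replicate 2 was thus present in both kinds of table, whichever start they used.

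Cntn4, at chr6:105677660-106699310 (plus strand), spread over the most transcripts, 13 in the annotation. Cntn4-202, of 1026 residues, led with 42.7% and 37.8% of the TPM and 21.3% and 23.2% in the read-based tables. Cntn4-205 lacks the last 7 coding exons of Cntn4-202 and encodes 705 residues. It held 15.1% and 13.2% of the TPM, but 6.50% and 3.40% in the read-based tables. Cntn4-206, with the same coding length as Cntn4-202, held 2.74% and 8.85%, and 10.97% and 15.4% in the read-based tables. The noncoding transcripts Cntn4-210 (10.3% and 11.99%), Cntn4-211 (8.16% and 8.78%) and Cntn4-208 (3.70% and 1.90%) took most of the rest. The read-based tables gave Cntn4-211 20.4% and 18.0% and Cntn4-208 17.8% and 11.6%. By alignment-based counts these noncoding forms were smaller, at 5.65% for Cntn4-211, 1.22% for Cntn4-208 and 0.996% for Cntn4-210, of 393 bases. Cntn4-202 held 62.3% of those counts.

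Cntn5, at chr9:9660891-10904775 (minus strand), gave 60.05% and 63.7% of its TPM and 89.3% of its counts to Cntn5-202, of 1098 residues. Cntn5-204 skips the 4 coding exons bounded by the joins printed above, 615 bases or 205 residues, which leaves 893 residues. It held 4.45% and 7.41% of the TPM, 0.54 and 0.80 TPM, and 6.73% and 8.41% in the read-based tables. The skipped form was thus the smaller one in each library and table. Cntn5-203, the retained-intron transcript, held 35.5% and 28.9% of the TPM but 3.46% of the counts. Cntn5-201 and Cntn5-205 were listed at 0 in both alignment-based tables, where the deposited intervals of Cntn5-201 reached 0.456 and 0.929 TPM. With complete coding transcripts only, Cntn5 had 7.83 and 7.67 TPM and was the lowest of the 8.

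Cntn6, at chr6:104492790-104863406 (plus strand), gave 96.0% and 94.0% of its TPM to Cntn6-201, of 1028 residues. The read-based tables gave that transcript 59.0% and 42.7%, and divided the rest among the fragment Cntn6-204 (15.5% and 24.1%), Cntn6-205 (11.1% and 21.8%) and Cntn6-202 (12.4% and 8.84%). Cntn6-205 has the same 3084-base coding length as Cntn6-201. The sum of complete coding transcripts was therefore less affected, at 82.5% and 73.3% of the read-based TPM.

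Cntnap4, at chr8:112570043-112882717 (plus strand), gave 88.9% and 91.9% of its TPM to Cntnap4-201, of 1310 residues. Cntnap4-202 differs from it in coding sequence within the 4 capital bases printed above and has the same coding length of 3930 bases. It held 7.09% of the TPM in replicate 1 and was listed at 0 in replicate 2, where the deposited interval reached 1.64 TPM. In the read-based tables it held 17.0% and 9.16%. Its share was lower in replicate 2 in both kinds of table, with deposited intervals that overlap (0.09 to 2.49 TPM in replicate 1). The retained-intron transcript Cntnap4-204 held 2.12% and 3.34%, and 12.9% and 14.5% in the read-based tables.

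The members share features of the genome that their choice by name did not use. Cntnap2, at chr6:45059357-47304213 (plus strand), spans 2245 kb and has rank 5 by length among 22015 nuclear protein-coding genes. Cntn5 spans 1244 kb (rank 27) and Cntn4 1022 kb (rank 57), followed by Cntn3 at 410 kb, Cntn6 at 371 kb and Cntnap4 at 313 kb. Thus 6 of the 8 exceed 200 kb, as do 998 coding genes or 4.53%, and the median coding gene spans 17.3 kb. The exceptions are Cntn2 at 33.8 kb and Cntnap1 at 20.2 kb. Their partners at the axonal junctions are long genes, Cntnap2 as given above and Cntn1, not among the 8, at 291 kb. Annotated exons cover 0.364% of the span of Cntn5 and 29.1% of that of Cntnap1.

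Chromosome 6 holds 4 of the 8 genes. Cntn3, Cntn6 and Cntn4 lie within 4537 kb there, and the only other protein-coding gene in that stretch is Chl1, an adhesion molecule of the L1 family that binds contactins. Chl1 had 55.9 and 52.0 TPM (54.0 ± 2.76 TPM), above its 3 neighbours in each library, and a log2 ratio of -0.02. Cntn4 at 27.7 TPM stood above Cntn3 and Cntn6 in each library, and the values of Cntn3 and Cntn6 overlapped.

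The members share few long identical stretches. Aligned over the coding sequence, pairs of contactins had 56.5% to 67.4% identical bases (10 pairs, Cntn3 with Cntn4 highest) and pairs of Caspr genes 58.4% to 61.5% (3 pairs). Pairs across the families had 58.5% to 62.4%, so Caspr pairs did not exceed the level that this alignment gives across families. Nor did the contactin pairs with Cntn2 (56.5% to 59.0%), Cntn3 with Cntn5 (62.0%) or Cntn5 with Cntn6 (62.0%), while the other contactin pairs did. The longest exact stretch shared by leading transcripts, untranslated parts included, was 47 bases, between Cntn3 and Cntnap2, and within the contactins it was 26 bases. No gene on the same strand overlaps an exon of a member. On the opposite strand Cntn5 overlaps Gm32710 (5 and 6 counts), Cntnap4 overlaps Gm45904 (3 and 0 counts) and Cntnap1 overlaps Plekhh3 (317 and 283 counts). These counts were small beside those of the members. The GC share of the coding sequence ran from 43.6% in Cntn6 to 57.7% in Cntn2.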

How the data were processed

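For each library the authors deposited, per the list of files, alignment-based gene and transcript tables of expected counts and TPM and a read-based transcript table of estimated counts and TPM, all on mm10 and GENCODE M21. They also deposited the posterior SD of each count and interval bounds of TPM. For the aligner, the quantifiers and the strand setting, the entry is: not given in the sources used here. The reference is C57BL/6J, to which CAST/EiJ reads were also assigned, and alleles were not separated.

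Expected counts were rounded, then scaled by TMM in edgeR 4.0.16 under R 4.3.3, using genes whose mean count reached 10. Ratios used a prior count of 0.5 and exact 95% intervals (scipy 1.17.1). DESeq2 1.42.0 gave alternative size factors. Scripts ran in Python 3.11.15, with Biopython 1.88 for alignment (match 2, mismatch -1, gap opening -5, extension -1). The interval rule was tested on simulated data. Shares are of the gene's summed TPM unless counts are named.

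The 8 members and all lists were chosen with earlier results of these data known. All members and the 5 other family genes are named. Of each other list the rule names the 3 highest by mean TPM and the lowest, which was done for the 3 partner lists; of the marker lists fewer genes are named. Genes that make up a count of 5 or fewer calls are named as well. Ptprg and Chl1 were added after their values were seen. Named transcripts hold at least 10% of TPM in both libraries of either kind of table, and those of smaller share were added after their values were seen. The backgrounds of genes whose mean count reached 500 or 4000 and the sums over complete coding transcripts were also chosen after seeing the data. Calls for the excitatory neuron list and the exon joins of Cntn4 are not reported here.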

Additional observations from a re-analysis of the deposited data

How the results depend on the processing

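The members' summed level, 233 TPM, was 363 TPM in the read-based tables, 514 TPM when TPM was rescaled to nuclear protein-coding genes and 177 TPM over complete coding transcripts only. Leaving out 1 library gave 228 to 239 TPM. Each of the 8 member levels moved by more than 1 SD under the first 2 of these settings and 5 of 8 under the last. No member lay beyond 2-fold and 3 left out equality under DESeq2 size factors, spike-in scaling, total count scaling, a mean count of at least 1 and read-based counts, with 2 higher and 1 lower in each; a prior count of 2 kept the same split. Cntn5 changed sign under total count scaling, to a log2 ratio of -0.0037, with an interval that held equality. All genes beyond 2-fold numbered 57, and 86 at a mean count of at least 1, where more genes were tested; the other settings gave 45 to 57. Of 22 transcript shares, 21 moved by more than 1 SD in the read-based tables and 17 as shares of counts; the cause was not tested. Ratios need both libraries, so no library could be left out of them. No paired analysis was possible because there is 1 group. With 2 libraries the SD itself is poorly known.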
